A study of Mus musculus with 24 samples.

Results

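The genes described here encode the subunits of the NMDA and AMPA receptors, the main fast excitatory receptors of the striatum. They are the 6 NMDA receptor genes Grin1, Grin2a, Grin2b, Grin2c, Grin2d and Grin3a and the 4 AMPA receptor genes Gria1, Gria2, Gria3 and Gria4, taken by symbol from tables that share 24340 genes. All 10 were found in every table. Striatal RNA came from male littermates on a C57BL/6J background in 4 groups. WT-vehicle (5 libraries) and R6/1-vehicle (6 libraries) received solvent, and WT-RGFP109 (6 libraries) and R6/1-RGFP109 (7 libraries) received RGFP109, an inhibitor of the histone deacetylases HDAC1 and HDAC3. R6/1 mice are hemizygous for a transgene that expresses exon 1 of human HTT with an expanded CAG repeat, the mutation of Huntington's disease, so the model carries a fragment of the gene beside the normal mouse gene. RGFP109 was given at 30 mg/kg in 5 injections a week over 3 weeks, beginning at 11 to 14 weeks of age, and tissue was taken at 14 to 17 weeks, 18 h after the last injection. For each pair of groups the authors deposited 1 FPKM value per gene and group (fragments per unit of transcript length, relative to all mapped fragments of the library), which pools the mice of that group. The spread between mice is not in these columns, the authors' own test columns were not used, and the read depth is unknown, so no error or test is given with any value. Below, a gene is called past the fold when the log2 ratio of its FPKM values, each with 0.05 added, was above 0.5 or under -0.5, a change of at least 1.41-fold.

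NMDA and AMPA receptors are ion channels built as tetramers. AMPA receptors open when glutamate binds, and most NMDA receptors need glutamate and a co-agonist, glycine or D-serine. Every NMDA receptor contains GluN1, the product of Grin1, joined by GluN2 subunits (Grin2a to Grin2d) or by GluN3A (Grin3a), and these partners set how long the channel stays open, how strongly magnesium blocks it and how much calcium it passes. AMPA receptors are built from GluA1 to GluA4 (Gria1 to Gria4), and edited GluA2 keeps calcium out of the channel. Striatal projection neurons receive glutamate from cortex and thalamus through both receptors, and NMDA receptor toxicity is a long-standing theme of Huntington's disease research. Grin2c is best known from cerebellar granule cells and is also found in forebrain astrocytes.

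The tissue carried the markers of striatum in all groups. Each of 9 markers of striatal projection neurons was present at 26.1 FPKM or more, and their summed level was 3334 FPKM in WT-vehicle, 1280 in R6/1-vehicle, 3204 in WT-RGFP109 mice and 1148 in R6/1-RGFP109. Markers of neighbouring tissue varied as well. The summed level of 8 neocortical neuron markers ran from 204.4 FPKM in R6/1-vehicle to 365.4 in WT-vehicle, and that of 6 choroid plexus markers from 9.08 FPKM in R6/1-RGFP109 to 42.0 in WT-vehicle. In pieces of tissue, fewer cells of a type and less RNA per cell cannot be told apart.

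The receptor genes lie on 9 chromosomes of the mouse genome build mm10, and each value covers the exons of the RefSeq gene model. Grin2c, the member with the widest separation between genotypes, occupies chr11:115249169-115267243 on the minus strand. Grin1 lies at chr2:25289911-25319187 and Gria2 at chr3:80684936-80802791, both on the minus strand, and Gria3 at chrX:41401301-41678601 on the plus strand. The 250 bases before the annotated start are shown for 3 members that differ in pattern, namely Grin2c (lower in both R6/1 groups), Grin1 (lower by a smaller amount) and Gria2 (within 1.12-fold in all groups). The sequences are from RefSeq on GRCm38.p6 (mm10), which gave a promoter for 5 of the 10 members (Grin1, Grin2c, Grin2d, Gria2 and Gria4), and read 5′ to 3′ toward the gene. Capitals mark the GC box GGGCGG and the E-box CACGTG, both searched on both strands.
Grin2c, chr11:115267244-115267493, minus strand: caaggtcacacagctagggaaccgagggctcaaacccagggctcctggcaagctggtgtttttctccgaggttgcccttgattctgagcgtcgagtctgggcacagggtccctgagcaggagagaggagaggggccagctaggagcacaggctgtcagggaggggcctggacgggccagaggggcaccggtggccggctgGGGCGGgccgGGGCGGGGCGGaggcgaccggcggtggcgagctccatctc
Grin1, chr2:25319188-25319437, minus strand: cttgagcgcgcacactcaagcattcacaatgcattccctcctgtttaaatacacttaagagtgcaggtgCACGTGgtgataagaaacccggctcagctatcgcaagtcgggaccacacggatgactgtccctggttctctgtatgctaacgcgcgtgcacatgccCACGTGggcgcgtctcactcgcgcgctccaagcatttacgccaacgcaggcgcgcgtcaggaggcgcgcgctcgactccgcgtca
Gria2, chr3:80802836-80803085, minus strand: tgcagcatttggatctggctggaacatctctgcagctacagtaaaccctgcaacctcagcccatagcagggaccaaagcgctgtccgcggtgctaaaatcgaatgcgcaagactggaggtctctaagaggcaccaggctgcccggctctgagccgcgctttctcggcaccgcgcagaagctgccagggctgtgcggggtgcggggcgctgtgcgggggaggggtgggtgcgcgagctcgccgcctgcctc

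The Grin2c window held 3 GC boxes, of which the last 2 overlap by 1 base, and Grin1 held 2 E-boxes and no GC box. The windows of Gria2, Gria4 and Grin2d held none of the motifs. Over 32851 mouse promoters of the same length, 32.7% held a GC box and 6.02% an E-box, while 1.55% held the cyclic AMP response element TGACGTCA, which none of the 5 member windows contained. These matches describe the letters and say nothing about factor binding.

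Levels per transcript length spanned about 2 orders of magnitude, and the order of the genes was the same in all 4 groups. Grin1, the obligatory NMDA receptor subunit, was the highest, at 182.5 FPKM in WT-vehicle, 155.0 in R6/1-vehicle, 174.5 in WT-RGFP109 mice and 151.8 in R6/1-RGFP109. Gria2 followed at 108.1, 121.0, 116.3 and 118.7 FPKM in the same order of groups, and Gria1, which encodes GluA1, at 106.8, 110.8, 107.9 and 102.3 FPKM. Gria2 and Gria1 were neighbours in the order with a ratio of only 1.01 in WT-vehicle, and no spread is known by which to separate them. Gria3 was at 49.2, 35.8, 49.9 and 35.7 FPKM, and Gria4 at 20.2, 21.4, 21.2 and 20.6 FPKM. Gria3 separated the genotypes, while the 4 values of Gria4 lay within 1.06-fold of each other.

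Among the partners of Grin1, Grin2c had the highest level in every group. It was measured at 18.0 FPKM in WT-vehicle, 10.2 in R6/1-vehicle, 19.2 in WT-RGFP109 mice and 10.1 in R6/1-RGFP109. Grin3a, whose product lowers calcium flow and magnesium block, was at 6.39, 7.60, 7.47 and 7.09 FPKM. Grin2b, which encodes the GluN2B subunit typical of the young forebrain, was at 4.40, 5.56, 5.01 and 4.65 FPKM. Grin2d stayed between 3.49 and 3.71 FPKM, and Grin2a was lowest, at 1.73, 1.93, 2.10 and 1.58 FPKM. In WT-vehicle, Grin1 lay above 97.9% of 17263 genes with more than 0.1 FPKM in at least 1 group, Grin2c above 70.4% and Grin2a above 27.2%. The order of Grin2a, Grin2b and Grin2c rests on the gene models, since GENCODE annotates 16572 further bases at the 3′ end of Grin2b and 9812 at that of Grin2a, but none at that of Grin2c. It also annotates 3486 further bases for Gria2 and 600 for Grin2d, and ends Grin1 earlier, so the shares and ratios between genes below carry the same limit. The share of reads that falls there was not tested.

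**Figure D1:**
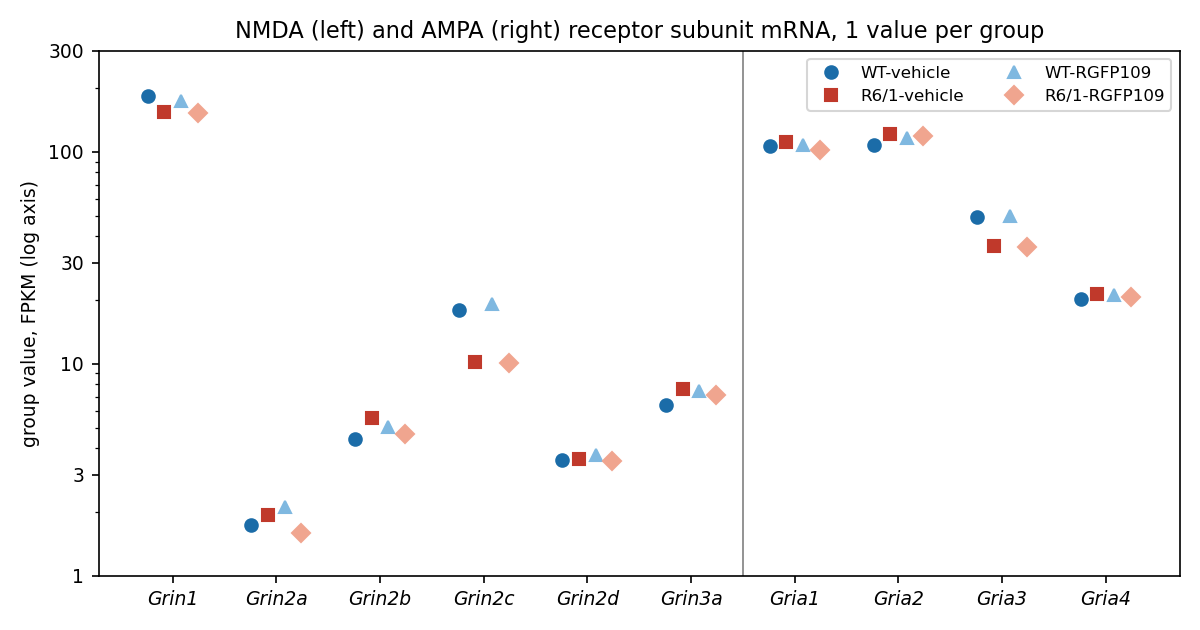
FPKM of each NMDA (left) and AMPA (right) receptor subunit gene on a logarithmic axis, with 1 pooled value per group placed on a scale common to the tables and no error bars because the tables hold none. Grin2c and Gria3 are lower in both R6/1 groups (squares and diamonds) than in both wild type groups (circles and triangles), whereas the values of Grin2d and Gria4 lie within 1.06-fold of each other.

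The comparison of R6/1-vehicle with WT-vehicle asks which subunit mRNAs differ in the disease model. Of the 10 members only Grin2c was past the fold, at 10.2 FPKM in R6/1-vehicle and 18.0 in WT-vehicle, a log2 ratio of -0.81. Of 16972 genes with more than 0.1 FPKM in at least 1 of the groups, 19.2% were past the fold, so 1 of 10 members is no more than the background. An absolute log2 ratio larger than that of Grin2c was held by 9.14% of genes. Gria3, the GluA3 gene, was just short of the fold at 35.8 FPKM against 49.1, a log2 ratio of -0.46. Grin1 was at 0.849 times its wild type level, a log2 ratio of -0.24.

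The remaining members had values above wild type. Grin2b was at 5.55 FPKM in R6/1-vehicle and 4.39 in WT-vehicle (log2 ratio 0.33), and Grin3a at 7.59 against 6.38 FPKM (0.25). Gria2 had a log2 ratio of 0.16 and Grin2a one of 0.15, and those of Gria4, Gria1 and Grin2d were 0.08, 0.05 and 0.02. At the smaller fold of 0.25, 3 members were counted against 43.6% of all genes. Those were Grin2c and Gria3 on the lower side, where 26.3% of genes lay, and Grin2b on the higher side, where 17.3% lay. Grin3a was just short of it at 0.248, but past it when ratios were centred on the median of all genes (0.268). Across all members the median absolute log2 ratio was 0.20, beside 0.21 for all genes.

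In RGFP109-treated mice the question was the same, and the mice were different ones, since the R6/1-RGFP109 and WT-RGFP109 groups share none with the vehicle groups. Grin2c was again the only member past the fold, at 10.1 FPKM in R6/1-RGFP109 and 19.2 in WT-RGFP109, a log2 ratio of -0.92. Among all genes 17.1% were past the fold, and 6.13% had a larger absolute ratio than Grin2c. Gria3 was at 35.8 against 50.0 FPKM (log2 ratio -0.48), and Grin1 at 152.2 against 174.9 FPKM (-0.20). Both ratios lay close to those of the vehicle groups.

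Grin2a differed from the vehicle comparison in direction, with 1.59 FPKM in R6/1-RGFP109 and 2.11 in WT-RGFP109, a log2 ratio of -0.40. Grin2b was also on the lower side here (-0.11), as were Grin2d (-0.09), Gria1 (-0.08), Grin3a (-0.07) and Gria4 (-0.04). Gria2 alone was above 0, at 0.03. The median of the members was -0.10, and that of all genes 0.00. At the fold of 0.25 the members counted were Grin2c, Gria3 and Grin2a, all on the lower side. That is 3 of 10, beside 38.7% of all genes on either side and 23.3% on the lower side, while none of the members was among the 15.4% on the higher side.

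**Figure D2:**
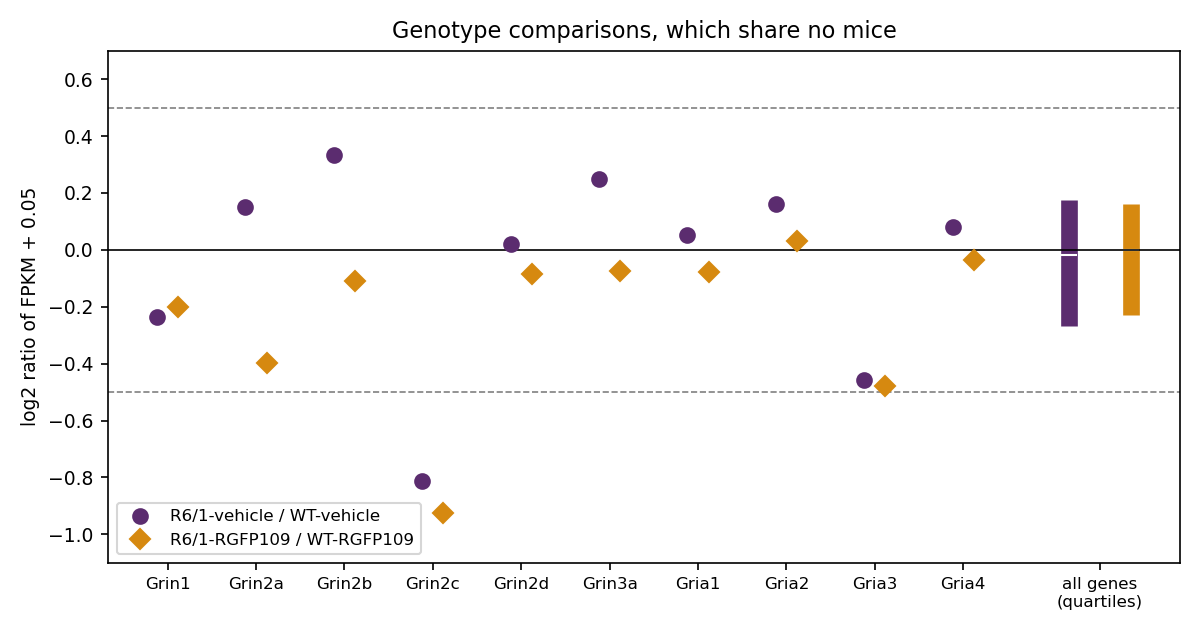
Log2 ratio of R6/1 over WT FPKM (0.05 added) for each subunit gene in vehicle mice (circles) and in RGFP109-treated mice (diamonds), with bars for the interquartile range of all genes, a white line at their median and dashed lines at the fold of 0.5. Grin2c lies beyond the lower dashed line in both comparisons at -0.81 and -0.92, and Gria3 just inside it at -0.46 and -0.48.

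Over both genotype comparisons, 4 members kept the same sign, namely Grin1, Grin2c and Gria3 below 0 and Gria2 above. Among 16662 genes over the minimum level in both, 80.4% kept their sign. The same 4 members were those for which both wild type groups lay on one side of both R6/1 groups, a pattern held by 71.1% of 17263 genes. The values of the other 6 members overlapped between the genotypes. Separation by genotype was thus found for 4 of 10 members beside 71.1% of all genes, and is not particular to them. The log2 ratio of the R6/1 mean to the wild type mean was -0.87 for Grin2c and -0.47 for Gria3. It was -0.22 for Grin1 and 0.10 for Gria2.

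Cell type markers moved with the genotype too. The summed level of 8 astrocyte markers was 1151 FPKM in WT-vehicle and 792.7 in R6/1-vehicle, 1141 in WT-RGFP109 mice and 791.6 in R6/1-RGFP109. All 8 were on the lower side in both comparisons and 3 of 8 were past the fold in each. Past the fold on the lower side were 13.4% of all genes in vehicle mice and 11.7% in treated mice. The median log2 ratio of all genes was -0.02 in vehicle mice and 0.00 in treated mice. All markers of projection neurons, interneurons, oligodendrocyte precursors, microglia and choroid plexus were on the lower side in both comparisons as well. Of the 9 projection neuron markers, 8 were past the fold on the lower side in each comparison, and of 8 interneuron markers 6 were in vehicle mice and 7 in treated mice. Neocortical markers were past the fold, and lower, for 7 of 8 in vehicle mice and for 0 of 8 in treated mice, and oligodendrocyte markers for 5 of 8 and 0 of 8. Choroid plexus markers were past the fold, and lower, for 5 of 6 in each comparison, and endothelial markers for 1 of 5. No microglia or precursor marker was past it. The part of these cell types in the subunit values was not tested.

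The lower Grin2c value was reflected in the make-up of the summed GluN2 mRNA. Grin2a to Grin2d added up to 27.6 FPKM in WT-vehicle, 21.3 in R6/1-vehicle, 30.0 in WT-RGFP109 mice and 19.8 in R6/1-RGFP109. Without Grin2c the sums were 9.62, 11.0, 10.8 and 9.72 FPKM, with no order by genotype. Grin2c took 65.2% of the GluN2 sum in WT-vehicle, 48.1% in R6/1-vehicle, 63.9% in WT-RGFP109 mice and 50.9% in R6/1-RGFP109. The share of Grin2b was 15.9%, 26.1%, 16.7% and 23.5%, and that of Grin2d 12.7%, 16.7%, 12.4% and 17.6%. Since shares add up to 100%, the higher shares of Grin2b and Grin2d in R6/1 groups contain the lower level of Grin2c.

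A ratio of single genes does not depend on the sum. The ratio of Grin2c to Grin2b was 4.10 in WT-vehicle, 1.84 in R6/1-vehicle, 3.82 in WT-RGFP109 mice and 2.17 in R6/1-RGFP109. The ratio of Grin2b to Grin2a, often followed in forebrain maturation, was 2.55, 2.89, 2.38 and 2.93. Both ratios placed the R6/1 groups on one side of the wild type groups. Single genes did so in 71.1% of cases, and how often a ratio of genes does was not examined. Grin2a and Grin2b each overlapped between the genotypes. Grin1 exceeded the GluN2 sum 6.60, 7.29, 5.82 and 7.67 times, with higher values in both R6/1 groups. That order came with Grin2c, since against the sum without Grin2c the values were 19.0, 14.0, 16.1 and 15.6 times, lower in both R6/1 groups.

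In the AMPA receptor family the sum showed no order by genotype, with 284.2 FPKM in WT-vehicle, 288.9 in R6/1-vehicle, 295.2 in WT-RGFP109 mice and 277.3 in R6/1-RGFP109. Gria3 held 17.3% of it in WT-vehicle, 12.4% in R6/1-vehicle, 16.9% in WT-RGFP109 mice and 12.9% in R6/1-RGFP109. The share of Gria2 was 38.0%, 41.9%, 39.4% and 42.8%, and that of Gria1 37.6%, 38.3%, 36.6% and 36.9%. As with the GluN2 shares, the higher shares of Gria2 in R6/1 groups contain the lower level of Gria3. The ratio of Gria3 to Gria2 was 0.455 and 0.429 in the wild type groups and 0.296 and 0.301 in the R6/1 groups. The ratio of Gria2 to Gria1, which bears on how many receptors could contain GluA2, ran from 1.01 to 1.16. It was 1.01 and 1.08 in the wild type groups and 1.09 and 1.16 in the R6/1 groups. The R6/1 values thus lay above the wild type values, but 1.08 and 1.09 are close and no spread is known.

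**Figure D3:**
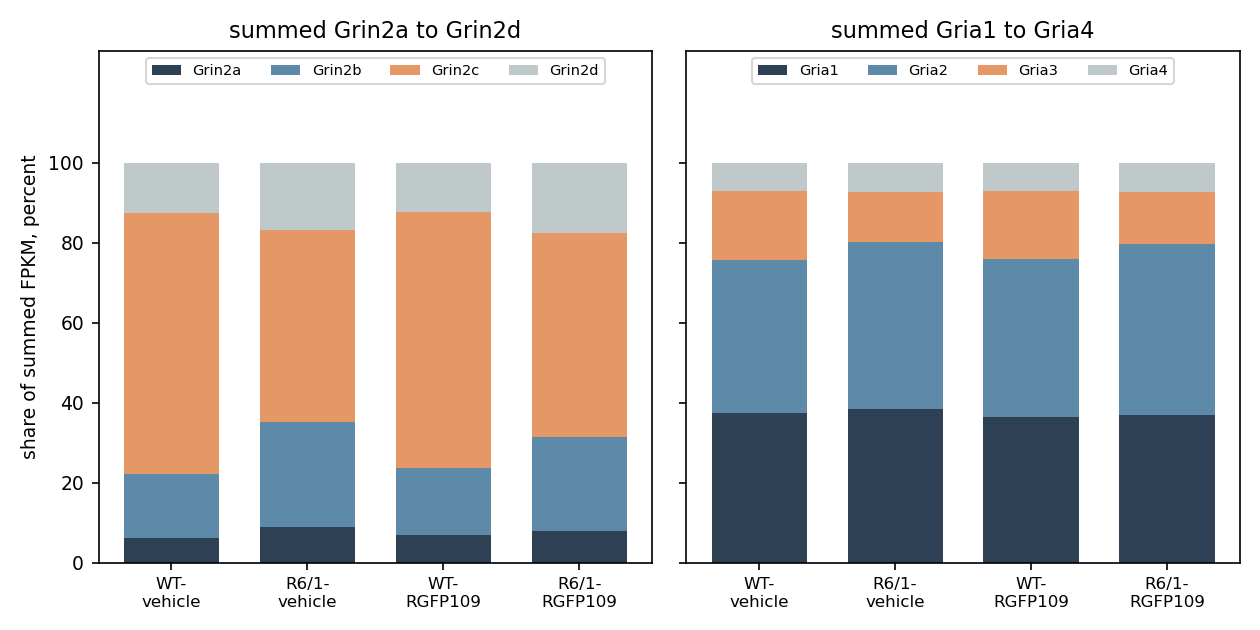
Share of each gene in the summed FPKM of Grin2a to Grin2d (left) and of Gria1 to Gria4 (right), in percent, for the 4 groups. The Grin2c segment is smaller in the R6/1 groups (48.1% and 50.9%) than in the wild type groups (65.2% and 63.9%), and so is the Gria3 segment.

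The comparison of R6/1-RGFP109 with R6/1-vehicle asks how subunit mRNAs stood with and without the inhibitor in the disease model. None of the 10 members was past the fold, beside 5.77% of 16840 genes. Grin2c was at 10.4 FPKM with RGFP109 and 10.6 with vehicle (log2 ratio -0.02), and Gria3 at 36.9 against 37.0 FPKM (-0.01), on the scale of that table. The members with the largest ratios were Grin2a, at 1.64 against 1.99 FPKM (-0.27), and Grin2b, at 4.80 against 5.75 FPKM (-0.26). Those 2 were past the smaller fold of 0.25, as were 13.9% of genes, but with a pseudocount of 1 FPKM their ratios were -0.18 and -0.22 and no member was. Gria1 had a log2 ratio of -0.12, Grin3a one of -0.10 and Gria4 one of -0.05, and Grin1, Gria2 and Grin2d ones of -0.03, -0.03 and -0.02. All 10 ratios were below 0, with a median of -0.04 beside 0.00 for all genes. They come from the same groups of mice and are not 10 separate observations. The share of all genes below 0 was not counted.

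In wild type mice, WT-RGFP109 against WT-vehicle likewise put no member past the fold, beside 8.11% of 16957 genes. Grin2a had the largest ratio, at 2.03 against 1.67 FPKM (log2 ratio 0.28), and was the only member past the fold of 0.25, beside 18.7% of genes, with a ratio of 0.18 and no member past it at a pseudocount of 1 FPKM. Grin3a was at 7.21 against 6.17 FPKM (0.22) and Grin2b at 4.84 against 4.24 FPKM (0.19). Gria2 had a log2 ratio of 0.11, Grin2c one of 0.09, Grin2d one of 0.08 and Gria4 one of 0.07, and those of Gria3 and Gria1 were 0.02. Grin1 alone was on the lower side (-0.06). The median of the members was 0.09, and that of all genes -0.01.

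Grin1 was the only member whose treatment ratio had the same sign in both genotypes. Many of these ratios were near 0, and the median absolute log2 ratio of the members was 0.042 in R6/1 mice and 0.086 in wild type mice, beside 0.061 and 0.088 for all genes. Among 16534 genes over the minimum level in both comparisons, 50.5% had the same sign. For Grin2a the ratio in R6/1 mice minus that in wild type mice was -0.55 on the log2 scale, and 7.64% of genes had a larger absolute difference. The difference was -0.45 for Grin2b and -0.32 for Grin3a, and for the other members it lay between -0.13 and 0.03. No member had both vehicle groups on one side of both RGFP109 groups, a pattern held by 14.3% of 17263 genes. These are the same 4 group values as in the genotype comparisons, so the switch of Grin2a and Grin2b between genotype comparisons and that between treatment comparisons are 1 contrast and not 2 findings.

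Other tissue markers differed between the treatment groups. All 6 choroid plexus markers were past the fold and lower with RGFP109 in both genotypes. Among all genes 5.77% were past the fold in R6/1 mice and 8.11% in wild type mice. The median log2 ratio of all genes was 0.00 in R6/1 mice and -0.01 in wild type mice. In R6/1 mice the 8 neocortical markers were all on the higher side with RGFP109, 3 of them past the fold, and their sum was 258.7 FPKM against 204.4. In wild type mice 7 of those 8 were on the lower side and none past the fold, and the summed oligodendrocyte level was 1499 FPKM with RGFP109 and 1882 with vehicle. Whether these differences in tissue content bear on Grin2a and Grin2b was not tested.

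**Figure D4:**
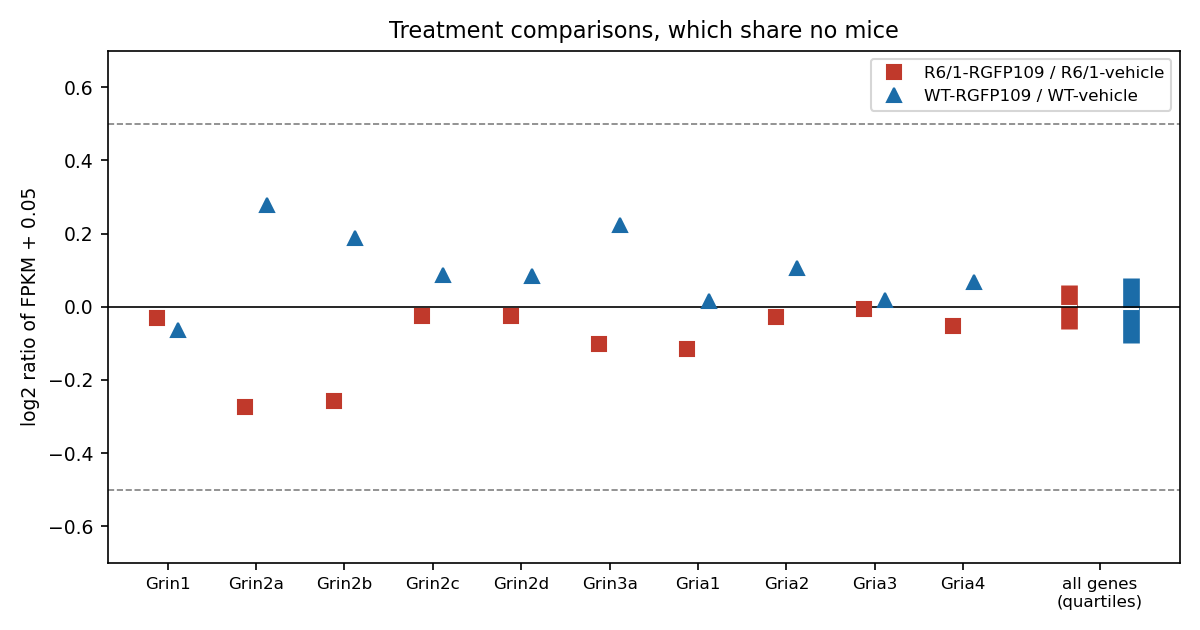
Log2 ratio of RGFP109 over vehicle FPKM (0.05 added) for each subunit gene in R6/1 mice (squares) and wild type mice (triangles), with bars for the interquartile range of all genes and dashed lines at the fold of 0.5. No member reaches a dashed line, and Grin2a, Grin2b and Grin3a show the widest gaps, with squares below 0 and triangles above.

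R6/1-RGFP109 was also set beside WT-vehicle, to see where treated R6/1 mice stood relative to untreated wild type mice. Grin2c was past the fold, at 10.1 FPKM against 18.0 (log2 ratio -0.84), and was the only member, beside 19.2% of 16982 genes. Gria3 was at 35.8 against 49.3 FPKM (-0.46) and Grin1 at 152.0 against 182.7 FPKM (-0.27). The remaining members lay between -0.12 (Grin2a) and 0.15 (Grin3a). This comparison shares its groups with those above and adds no separate mice.

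The 3 genes whose 4 group values ran most nearly parallel to those of Grin2c, among 12989 genes with at least 1 FPKM in every group, were Krt222, Id4 and Zfyve28. Likeness was measured as the distance between the 4 log2 levels after removing each gene's own mean. Krt222 lay at 14.9 FPKM in WT-vehicle, 8.54 in R6/1-vehicle, 15.8 in WT-RGFP109 mice and 8.50 in R6/1-RGFP109, a distance of 0.027. Id4 lay at 61.8, 34.3, 64.1 and 33.7 FPKM, a distance of 0.029, and Zfyve28 at 25.4, 14.2, 26.3 and 14.4 FPKM, a distance of 0.042. With 4 values per gene such a likeness is a description only.

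Among genes of proteins that accompany the receptors, values were mostly lower in R6/1 mice. This list, like the other gene lists, was chosen with earlier results of these data known. Of 20 auxiliary subunits and partners of AMPA and kainate receptors, 9 were past the fold in R6/1-vehicle against WT-vehicle, all lower, with a median log2 ratio of -0.39 beside -0.02 for all genes. Past the fold on the lower side were 13.4% of all genes. In the RGFP109-treated mice 8 of the 20 were past the fold, again all lower, with a median of -0.36, and 11.7% of all genes were past it on that side. Gsg1l, an AMPA receptor auxiliary subunit, was at 47.8 FPKM in WT-vehicle, 15.5 in R6/1-vehicle, 47.1 in WT-RGFP109 mice and 15.7 in R6/1-RGFP109, which are log2 ratios of -1.62 and -1.58 by genotype. Shisa8, another auxiliary subunit, had ratios of -0.91 and -1.05 at levels of 1.55 to 3.63 FPKM. Nptxr, a neuronal pentraxin receptor that gathers AMPA receptors at synapses, had ratios of -0.87 and -0.62. Neto2, an auxiliary subunit of kainate receptors, had ratios of -0.85 and -0.79. By treatment, none of the 20 was past the fold in R6/1 mice, beside 5.77% of all genes. In wild type mice 1 was, beside 8.11% of all genes. That was Cacng5 at 0.55, a gene picked out after its values were seen.

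**Figure D5:**
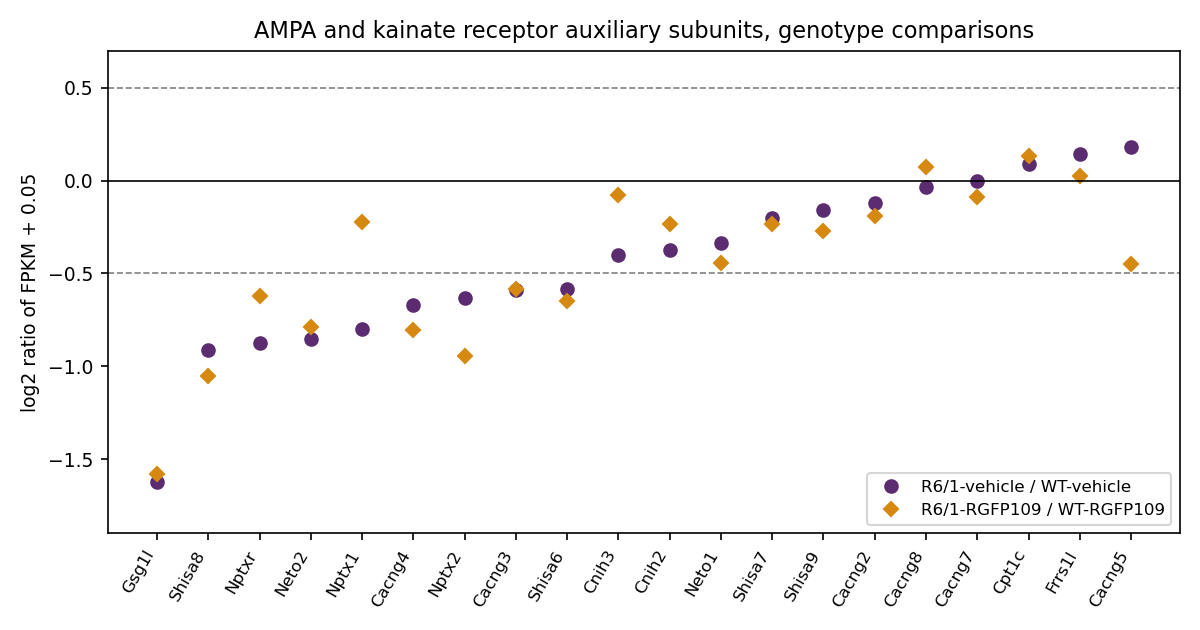
Log2 ratio of R6/1 over WT FPKM (0.05 added) for 20 auxiliary subunits and partners of AMPA and kainate receptors, in vehicle mice (circles) and RGFP109-treated mice (diamonds), ordered by the vehicle ratio, with dashed lines at the fold of 0.5. In each comparison 17 of the 20 genes lie below 0, and Gsg1l is lowest at -1.62 and -1.58. The median of all genes is -0.02 in vehicle mice and 0.00 in treated mice.

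Among genes of glutamate transporters, several mRNA values differed between the genotypes as well. Of 6 glutamate transporters, 3 were past the fold on the lower side in R6/1-vehicle against WT-vehicle and 1 on the higher side, beside 19.2% of all genes on either side. In treated mice 2 were past it, both lower, beside 17.1% of all genes. Slc1a2, the main astrocytic uptake carrier and also one of the astrocyte markers above, was at 293.5 FPKM in WT-vehicle, 177.2 in R6/1-vehicle, 296.3 in WT-RGFP109 mice and 184.5 in R6/1-RGFP109. Its genotype ratios were -0.73 and -0.68. Slc17a7, the vesicular transporter of cortical terminals and one of the neocortical markers, had ratios of -0.89 in vehicle and -0.47 in treated mice. Slc17a8, a vesicular transporter found in cholinergic interneurons, had ratios of -0.86 and -1.21. Slc17a6, typical of thalamic neurons, had ratios of 0.68 and -0.25, so its direction was not kept. It was at 3.9 FPKM in WT-vehicle and at 5.1 to 6.3 FPKM in the other groups.

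Among 8 other ionotropic glutamate receptor subunits, Grik2, a kainate receptor subunit, was the only gene past the fold. Its genotype ratios were -0.58 and -0.70. That is 1 of 8 in each comparison, beside 19.2% of all genes in vehicle mice and 17.1% in treated mice. Of 8 trafficking partners and RNA editing enzymes of AMPA receptors, none was past it in vehicle mice. In treated mice only Grip2 was, at -0.57, also picked out after its values were seen. The same shares of all genes stand beside these counts. Of 9 genes that supply or clear the NMDA receptor co-agonists glycine and D-serine, 3 were past it in vehicle mice, beside 19.2% of all genes. None of the 7 over the minimum level was in treated mice, beside 17.1% of all genes. Phgdh, which starts serine synthesis, had a ratio of -0.71 in vehicle mice and -0.44 in treated mice. Dao, which degrades D-serine, was at 0.134 FPKM or less in every group, and Slc6a5, a glycine transporter, was listed at 0 in both wild type groups, so neither gives a usable fold.

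Some values carry limits of annotation. Exons of Grin1 overlap an antisense gene, Grin1os, by 1307 bases, and Grin1os was listed at 8.85, 7.02, 9.11 and 7.11 FPKM in WT-vehicle, R6/1-vehicle, WT-RGFP109 and R6/1-RGFP109. Grin2d overlaps an antisense transcript by 643 bases, and Grin2b overlaps such transcripts by 143 and 49 bases. Whether the authors' counting used strand is not given in the sources used here, so reads of either strand cannot be told apart in these stretches. Grin2c, Gria3, Gria1, Gria2, Gria4, Grin2a and Grin3a had no such overlap.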

How the data were processed

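Striatal RNA was sequenced from 24 mice as 51 bp single-end reads. The authors aligned reads with STAR 2.5.0b to RefSeq mm10, estimated FPKM with Cufflinks 2.2.1 and compared each pair of groups with Cuffdiff 2, as the submitters' processing notes and the methods state. They deposited 6 tables, each with 1 FPKM value per group and gene. The tables also hold the authors' log2 fold change, test statistic, p-value, q-value and significance call, which were not used. Libraries were sequenced in 2 pools, each of which held libraries of every group according to the methods. The pool of each library is not given, so no check within pools was possible. Read depth is unknown. Columns were matched to groups by name.

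Cuffdiff scaled FPKM within each pair, and table factors differed by up to 7.16%. Ratios were taken within the table of the pair as log2 of FPKM plus 0.05, for genes above 0.1 FPKM in at least 1 group of the pair. Levels and shares used a common scale from a least-squares fit of table factors, after which the 3 values of a group agreed within 0.17% for every member. The table of R6/1-vehicle and WT-RGFP109 served only for this scale. A gene was past the fold at an absolute log2 ratio above 0.5. No test was run here, because the columns used hold 1 value per group. The calculation was tested on simulated data with 200 changed genes. Starts had 1 added to be 1-based. GENCODE M21 gave antisense overlaps.

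Members and gene lists were chosen with earlier results of these data known. All 10 members were named, with at most the 4 genes of each list with the largest ratio past the fold in R6/1-vehicle against WT-vehicle, and the 3 genes nearest in pattern to each member past it. Marker lists covered projection neurons, interneurons, neocortical neurons, astrocytes, oligodendrocytes and their precursors, microglia, endothelium and choroid plexus. Summed levels that the results do not print ran from 28.7 to 34.2 FPKM for precursors, 223.9 to 270.3 for microglia and 44.4 to 55.5 for endothelium. Alternatives were another pseudocount, other filters, centring on the median gene, the common scale and folds of 0.25 and 1. Python 3.11.15, numpy 2.4.6, pandas 2.3.3 and matplotlib 3.10.9 were used.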

Additional observations from a re-analysis of the deposited data

How the results depend on the processing

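Each of the 5 comparisons was recomputed with a pseudocount of 1 FPKM or none, genes at 1 FPKM or more, no filter, ratios centred on the median of all genes, and FPKM on the common scale. Under these settings the number of members past the fold was as reported in every comparison. All member ratios stayed on their side of the fold, with a largest move of 0.13 on the log2 scale. The filters could not change a member count, since every member was above 1 FPKM in every group. The common scale could hardly change a ratio, since its table factors nearly cancel there. The sign was kept in 199 of 200 recomputed ratios, the exception being a ratio near 0. The fold itself mattered. At 0.25 the members past it numbered 3 in R6/1-vehicle against WT-vehicle, 3 in R6/1-RGFP109 against WT-RGFP109, 2 for RGFP109 in R6/1 mice, 1 for RGFP109 in wild type mice and 3 in R6/1-RGFP109 against WT-vehicle. Beside these counts, 43.6%, 38.7%, 13.9%, 18.7% and 43.2% of all genes were past 0.25 in the same order. The counts of 2 and 1 for RGFP109 at 0.25 were lost with a pseudocount of 1 FPKM, where Grin2a had -0.18 and Grin2b -0.22 in R6/1 mice and Grin2a 0.18 in wild type mice. Other counts at 0.25 depended on the setting too. Grin3a in R6/1-vehicle against WT-vehicle went from 0.248 to 0.268 with centring and to 0.2502 with no pseudocount, past 0.25. Grin1 in R6/1-RGFP109 against WT-vehicle went from -0.265 to -0.249 with centring, no longer past it. At a fold of 1 the count was 0 in each comparison, and the share of all genes past that fold was not computed. The background depended on low genes: with a pseudocount of 1 FPKM, 9.26%, 7.68%, 2.2%, 2.6% and 9.11% of genes were past the fold in the same order (1572, 1302, 371, 441 and 1547 genes, beside 3266, 2892, 971, 1376 and 3259), and among genes at 1 FPKM or more 15.1%, 13.1%, 3.24%, 4.22% and 14.9% (2094, 1816, 445, 581 and 2074 genes). Shares within a receptor family moved by at most 0.013 percentage points with the choice of table. A table factor cancels in a share, so this small move says nothing about the uncertainty of the shares. No paired analysis was possible because the deposited columns pool the mice of a group and carry no replicate numbers, and for the same reason no library could be left out in turn. The authors' test columns were not used, so differences such as those of Grin2a and Grin2b are not set against the variation between mice here.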
